A study of Mus musculus with 8 samples.

Results

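Yap1, its paralog Wwtr1 (which encodes TAZ), the 4 TEAD transcription factor genes Tead1 to Tead4 and Vgll4 make up the transcriptional end of the Hippo pathway in mouse liver. The 7 genes were taken from a deposited table of read counts by exact gene symbol, 7 of its 22155 genes, and all 7 passed the low-count filter that left 13999 genes for testing. YAP and TAZ are coactivators without a DNA-binding domain of their own, and the kinases of the Hippo pathway hold them in the cytoplasm by phosphorylation. In the nucleus they bind TEAD proteins, which supply the contact with DNA, and VGLL4 competes with them for the same TEAD surface. In liver the pathway is known for its part in organ size, biliary cell identity and regeneration after injury.

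Liver RNA was sequenced in 8 libraries that fell into 4 groups of 2. Yap1 knockout livers came from mice in which an AAV8 virus carrying iCre deleted Yap1 in hepatocytes, and Yap control livers came from Yap1 floxed homozygotes that received AAV8 with GFP. Ctgf knockout livers came from Ctgf conditional knockouts, and Ctgf control livers from Ctgf floxed homozygotes. The sources used here do not give the Cre driver of the Ctgf line, and its labels name no virus. All mice were C57BL/6 by label and 8 to 10 weeks old, where the design text says 8 weeks. All, controls included, were fed a Lieber-DeCarli liquid diet with 1% ethanol for 2 days, which was raised to 2% for the next 10. All were also injected, 2 days before sacrifice, with 1 µl of carbon tetrachloride (CCl4, which injures hepatocytes) for each g that they weighed. A liver spared this injury was not analysed here. Nothing in the labels states that the replicates were separate animals, so each p-value measures only how far these samples spread, and that spread may be technical.

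Total counts ran from 26904021 to 33488609 per library. Levels are given in CPM, reads scaled to a common library total and by TMM, a scaling that sets most genes level between libraries. The 6 hepatocyte markers (Alb, Apoa1, Ttr, Tat, Cps1 and Pck1) summed to between 40962 and 80176 CPM in the 8 libraries, and no marker was at 0. A pair of libraries stood apart. Yap control 2 held transcripts of the exocrine pancreas, at 9622 CPM over 6 markers, against 0.0284 to 0.208 CPM in the other libraries. In the library labelled Ctgf knockout 2, Ctgf stood at 49.2 CPM, above both Ctgf controls, at 28.8 and 32.1 CPM. In Ctgf knockout 1 it stood at 8.02 CPM. The level puts the label of Ctgf knockout 2 in doubt but does not settle it. Reads from cells without the deletion, or from exons left in place, would also be counted. Results are therefore also given without these libraries.

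Yap1 itself, the targeted gene, and Tead2 were lower in both Yap1 knockout libraries than in both controls. Wwtr1, Tead1 and Tead4 were higher in both. Over all genes tested, 23.6% were higher in this way and 20.8% lower. The log2 fold changes of Wwtr1 and Tead1 were 0.40 and 1.01 with all libraries, and 0.13 and 0.39 without Yap control 2. Tested by edgeR's quasi-likelihood method, and adjusted by Benjamini-Hochberg over 13999 genes, 0 of the 7 genes passed the threshold of adjusted p under 0.05 in this comparison. That threshold was passed by 0.0286% of all genes tested, 3 higher and 1 lower. At an unadjusted p under 0.05, 2 of the 7 genes passed, Yap1 and Tead4, against 13.8% of all genes. DESeq2 called 1 of the 7, Yap1, against 3.82% of the genes that it tested.

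**Figure D1:**
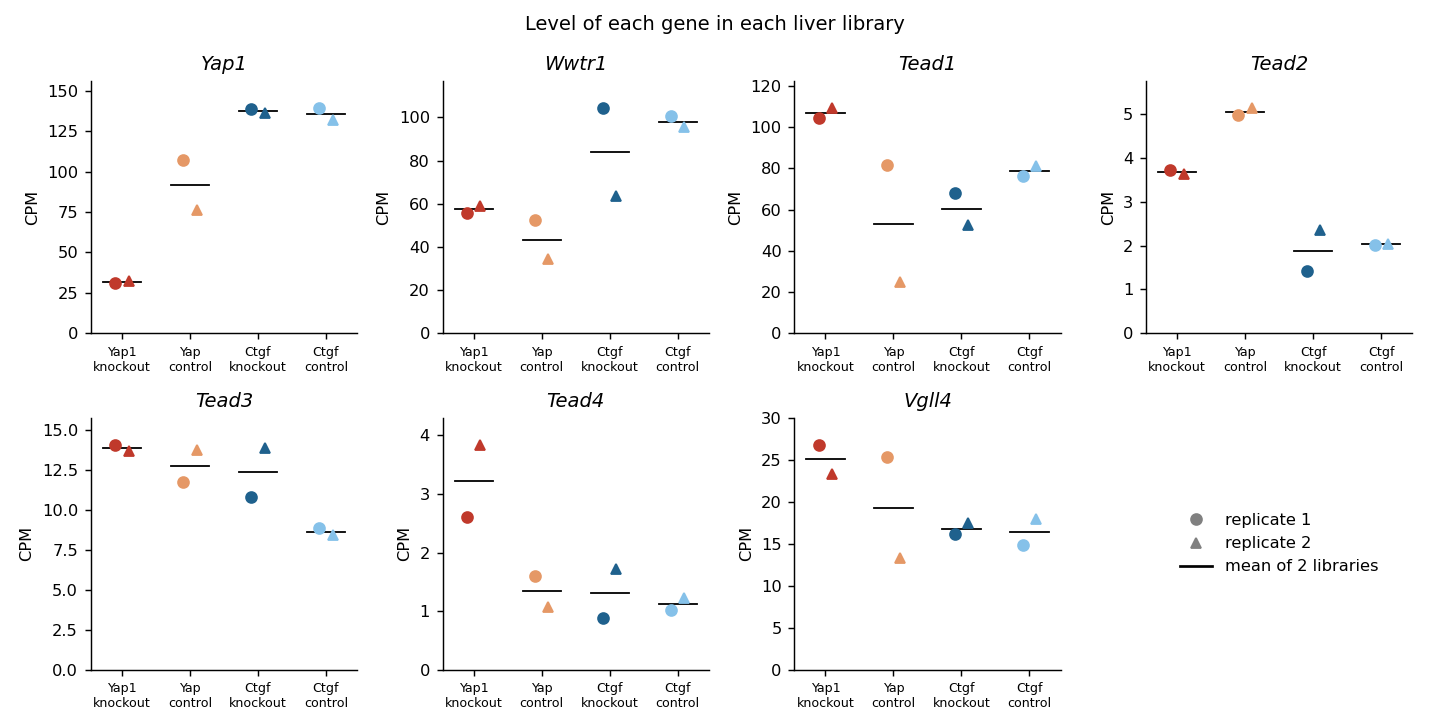
Level of each of the 7 genes in each liver library, in CPM of the TMM-scaled library, on axes that start at 0 and differ between genes. Circles are replicate 1, triangles are replicate 2 and bars are means of 2 libraries. Yap1 stood at 31.0 and 32.5 CPM in both Yap1 knockouts, against 76.1 CPM or more in all other libraries, and Tead1 was lowest in Yap control 2, at 24.9 CPM.

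Yap1 (GRCm38 chromosome 9, 7931999 to 8004596, minus strand, ENSMUSG00000053110.13) stood at 31.0 and 32.5 CPM in both Yap1 knockouts, from 942 and 940 reads. In the Yap controls it stood at 107 and 76.1 CPM, from 3869 and 1850 reads. Both knockout libraries lay far below both controls, and the knockouts differed less from each other than the controls did. The mean was 31.8 ± 1.08 CPM in Yap1 knockouts and 91.6 ± 21.8 CPM in Yap controls (SD, n = 2 each). The log2 fold change was -1.53 (SE 0.215, 95% interval -2.03 to -1.03), a level 34.7% of that in the controls. The edgeR adjusted p was 0.0557, outside the threshold, and in order of p the gene was number 28 of those tested. With DESeq2 the adjusted p was 9.65e-08.

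The measure holds Yap1 transcript from every liver cell, so that fewer cells of a type and less RNA per cell cannot be told apart. The sources used here do not name the floxed exon, and reads of exons that the deletion leaves in place would also be counted. Exons of Yap1 overlap those of Gm20416, a gene on the opposite strand that has no count here. Of the 50-base windows of Yap1 transcripts, 1.35% also occur in transcripts of other genes. Yap1 is also known to be expressed in cholangiocytes, stellate cells and endothelial cells, whose markers differed in direction between the libraries. The cholangiocyte markers summed to 636 and 654 CPM in Yap1 knockouts, and to 376 and 1478 CPM in Yap controls. Most of each sum was Spp1, at 533 and 566 CPM in Yap1 knockouts and 325 and 1357 CPM in Yap controls. Krt19, Epcam and Cftr stood at 32.6, 17.5 and 7.78 CPM in Yap control 2, the library with exocrine pancreas transcripts. In Yap control 1 they stood at 1.44, 1.88 and 0.166 CPM. The stellate cell markers summed to 451 and 461 CPM in Yap1 knockouts, and to 511 and 314 CPM in Yap controls. The endothelial markers summed to 514 and 481 CPM in Yap1 knockouts, and to 466 and 212 CPM in Yap controls. The hepatocyte markers summed to 41068 and 57279 CPM in Yap1 knockouts, and to 41106 and 76723 CPM in Yap controls, so that the sums overlapped. Most of each sum was Alb, at 29931 to 55345 CPM in these libraries. Tat and Cps1 were higher in both knockouts and Ttr was lower, while Alb, Apoa1 and Pck1 overlapped. None passed by edgeR, and DESeq2 called Tat and Cps1 (adjusted p = 0.000555 and 1.29e-05). The part of these cells in the level of Yap1 was not tested.

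Yap1 in the Ctgf line stood at 139 and 136 CPM in the libraries labelled Ctgf knockout, against 139.5 and 132 CPM in the Ctgf controls. The 4 values overlapped, with a log2 fold change of 0.017 (SE 0.210, edgeR adjusted p = 1). The difference between both knockout effects on Yap1 was -1.54 on the log2 scale (SE 0.299), with an edgeR adjusted p of 0.296 and a DESeq2 adjusted p of 0.00186. From low to high, the group means of Yap1 ran from Yap1 knockout through Yap control to Ctgf control and Ctgf knockout. The libraries of the highest pair overlapped, and no neighbouring pair of groups passed the edgeR threshold for Yap1.

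Wwtr1 (chromosome 3, 57455649 to 57575910, minus strand) encodes TAZ, the paralog of YAP that shares its TEAD partners. It stood at 55.6 and 59.0 CPM in both Yap1 knockouts, against 52.4 and 34.2 CPM in both Yap controls. The groups did not overlap, but the nearest libraries were only a few CPM apart. The log2 fold change was 0.40 (SE 0.290, 95% interval -0.27 to 1.07), and the edgeR adjusted p was 0.529. Without Yap control 2 it was 0.13. In the Ctgf line Wwtr1 stood at 104 and 63.6 CPM in the libraries labelled Ctgf knockout, and at 101 and 95.4 CPM in the Ctgf controls. The library labelled Ctgf knockout 2 alone was low, and the log2 fold change of -0.22 (SE 0.289, edgeR adjusted p = 1) was 0.090 without it.

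Among promoters, 5 of the 7 genes had an entry in RefSeq (GRCm38.p6), which covers 250 bases before a transcript start and 50 after it. Tead1 and Tead4 were not among them. GGAATG, the core of the motif that TEAD proteins bind, was searched on both strands (as CATTCC on the other), and matches were found for 4 of the 5, Yap1, Wwtr1, Vgll4 and Tead3. Of all 32851 entries, 14.7% held a match, and of 27025 genes, 16.6% had one in any entry. The coactivators' upstream bases are shown because their own promoters hold the core motif of their DNA-binding partner, printed 5′ to 3′ on the gene's strand with the motif in capitals.
Yap1, chr9:8004597-8004846, minus strand: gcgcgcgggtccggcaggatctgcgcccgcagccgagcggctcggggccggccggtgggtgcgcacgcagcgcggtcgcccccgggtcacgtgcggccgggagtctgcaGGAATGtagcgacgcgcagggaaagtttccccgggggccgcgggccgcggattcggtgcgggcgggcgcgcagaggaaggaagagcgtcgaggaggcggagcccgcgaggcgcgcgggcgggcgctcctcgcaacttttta
Wwtr1, chr3:57575911-57576160, minus strand: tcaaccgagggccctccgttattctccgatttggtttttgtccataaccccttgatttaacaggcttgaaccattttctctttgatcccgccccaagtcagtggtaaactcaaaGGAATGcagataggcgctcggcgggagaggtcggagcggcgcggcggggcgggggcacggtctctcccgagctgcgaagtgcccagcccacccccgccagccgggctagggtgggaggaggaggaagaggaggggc
Vgll4, chr6:114969268-114969297, minus strand: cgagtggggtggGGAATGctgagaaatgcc
Tead3, chr17:28350970-28350999, minus strand: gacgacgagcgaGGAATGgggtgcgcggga

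The match began at position -141 from the listed start in Yap1, at -136 in Wwtr1, at -82 in Vgll4 and at -182 in Tead3. Each of these 4 matches read GGAATG on the gene's own strand. A second Tead3 entry, which begins downstream of the first, held 3 more, and Tead2 held none in its window. A match in these letters is a description of the window and not a site of binding, which was not measured here.

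Expression between genes can be compared only per length, in CPM per kb of the union of a gene's exons. The order of the genes depended on which length was used. On the exon scale Wwtr1 stood highest of the 7 genes in the Yap1 knockouts, at 12.0 ± 0.515 CPM per kb, with Yap1 at 3.43 ± 0.116 CPM per kb (SD, n = 2). In the Yap controls Wwtr1 stood at 9.07 ± 2.69 and Yap1 at 9.89 ± 2.36 CPM per kb. These means lay within their spread, with Yap1 slightly the higher in both libraries. In the libraries labelled Ctgf knockout Wwtr1 stood at 17.6 ± 6.04 and Yap1 at 14.9 ± 0.173 CPM per kb. In the Ctgf controls Wwtr1 stood at 20.5 ± 0.788 and Yap1 at 14.7 ± 0.549 CPM per kb, with Wwtr1 the higher in both libraries on this scale. Per kb of the longest coding sequence, Tead1 stood highest in the Yap1 knockouts, at 81.8 ± 2.66 CPM per kb, above Wwtr1 at 42.3 ± 1.81 and Yap1 at 21.7 ± 0.736 (SD, n = 2). Yap1 then stood highest in the other 3 groups, at 62.5 ± 14.9 CPM per kb in the Yap controls, where Wwtr1 stood at 32.0 ± 9.47. In the Ctgf controls that scale gave 92.8 ± 3.47 CPM per kb for Yap1 and 72.3 ± 2.78 for Wwtr1, the opposite order to that per kb of exon. Wwtr1 stood above Yap1 on both scales in the Yap1 knockouts.

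Wwtr1 supplied 77.6% and 77.9% of the summed per-length level of both coactivators in the Yap1 knockouts, against 48.7% and 46.6% in the Yap controls. Its share was 59.3% and 47.5% in the libraries labelled Ctgf knockout, against 58.3% in each of the Ctgf controls. The Yap1 knockouts thus stood apart from all other libraries in this ratio. Against the Yap controls the ratio rests on the lower Yap1 level as well as on Wwtr1. Against the Ctgf line it rests on Yap1 alone, since Wwtr1 was higher there (63.6 to 104 CPM) than in the Yap1 knockouts (55.6 and 59.0 CPM). Of the raw reads of both genes, Wwtr1 held 64.2% in Yap1 knockout 1 (95% Wilson interval 62.3% to 66.0%) and 32.9% in Yap control 1 (31.7% to 34.1%), intervals that cover counting error only. The summed per-length level of Yap1 and Wwtr1 was 14.98 and 15.9 CPM per kb in the Yap1 knockouts, and 22.5 and 15.4 CPM per kb in the Yap controls. The sums overlapped, since Yap control 2 was the lower of the controls for both genes. With coding length the mean Wwtr1 share was 66.1% in Yap1 knockouts, 33.6% in Yap controls, 39.2% in the libraries labelled Ctgf knockout and 43.8% in Ctgf controls. Neither the shares nor the sums were tested.

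**Figure D2:**
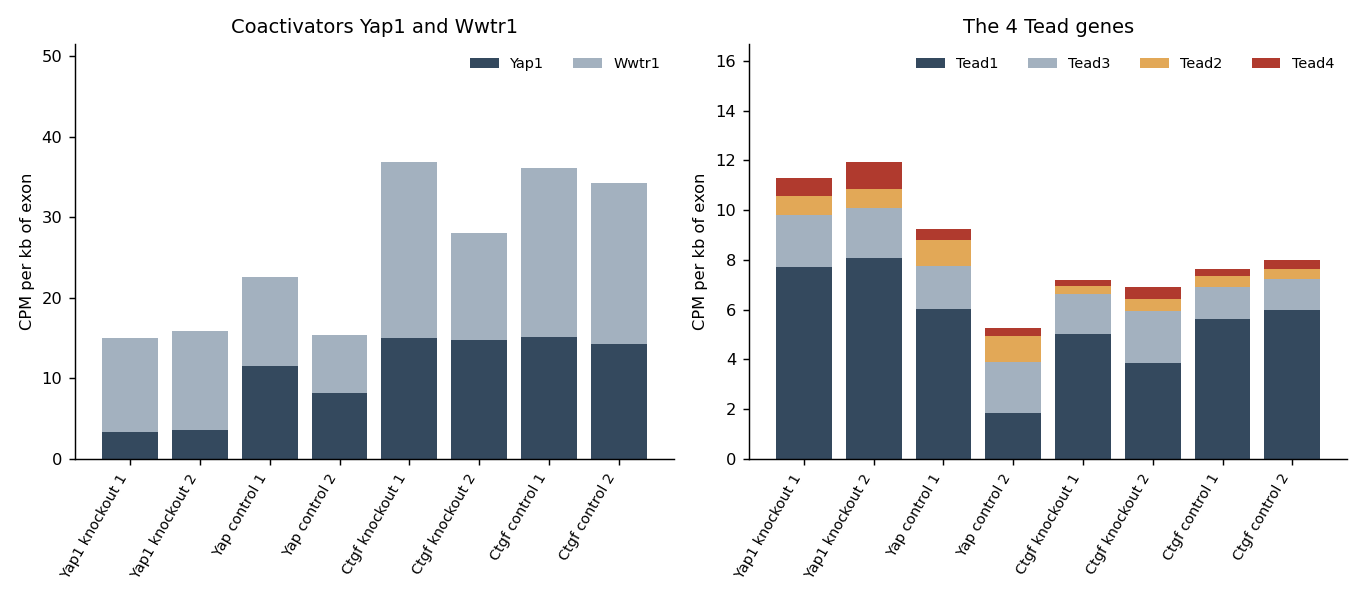
Per-length levels in each library, in CPM per kb of exon, stacked for the coactivators Yap1 and Wwtr1 (left) and for the 4 Tead genes (right), on axes that start at 0. The dark Yap1 segment is shortest in the Yap1 knockouts, where the sum of the Tead genes is highest, at 11.3 and 11.9 CPM per kb. Yap control 2 has the lowest Tead sum, at 5.25 CPM per kb.

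The 4 TEAD factors share a DNA-binding domain and differ in where they are expressed. Tead1 was the most abundant of them per kb of exon in 7 of the 8 libraries, and in Yap control 2 Tead3 was, with 38.9% of the summed level against 35.0% for Tead1. Per kb of coding sequence, as in reads, Tead1 was highest in all 8. Per-length means in the Yap1 knockouts were 7.88 ± 0.256 CPM per kb for Tead1 and 2.06 ± 0.0442 for Tead3 (SD, n = 2). In the same libraries Tead4 stood at 0.895 ± 0.244 CPM per kb and Tead2 at 0.768 ± 0.0127, which did not differ beyond their spread. In the Ctgf controls the means were 5.79 ± 0.253 CPM per kb for Tead1, 1.28 ± 0.0465 for Tead3, 0.423 ± 0.00577 for Tead2 and 0.312 ± 0.0398 for Tead4. Tead1 and Tead3 held the first places in both groups.

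Tead1 (chromosome 7, 112679318 to 112906807, plus strand) stood at 104 and 109 CPM in both Yap1 knockouts, against 81.5 and 24.9 CPM in both Yap controls. The knockouts were above both controls, but Yap control 2 was far below the other 7 libraries. For Tead1 the log2 fold change was 1.01 (SE 0.464, 95% interval -0.068 to 2.08, edgeR adjusted p = 0.386). Without Yap control 2 it was 0.39, and without Yap control 1 it was 2.06. Each of these fits leaves a lone control, which is assumed to vary like the other groups. Tead1 in the Ctgf line stood at 68.3 and 52.5 CPM in the libraries labelled Ctgf knockout, and at 76.1 and 81.0 CPM in the Ctgf controls. These groups did not overlap either, with a log2 fold change of -0.38 (SE 0.461, edgeR adjusted p = 1). The difference between both knockout effects on Tead1 was 1.38 on the log2 scale (SE 0.653, edgeR adjusted p = 0.574).

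Level in Yap control 2 moved with exon length over all genes, and Tead1, at 13570 bases, has the longest exon union of the 7. Of the genes tested, 13761 had an annotated length, 98.3% of them, and lay in 4 length classes. In Yap control 2 the median log2 difference from the mean of the other 7 libraries was 0.46 for the 1837 genes under 2 kb and -0.49 for the 2410 genes of 8 kb and over. In the library labelled Ctgf knockout 2 it was 0.058 and -0.14 for the same classes. In the other 6 libraries it ran from -0.16 to -0.049 for the shortest class and from 0.040 to 0.20 for the longest. Yap1, at 9257 bases, is the only other of the 7 genes in the longest class. The part of length in their values was not tested.

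**Figure D3:**
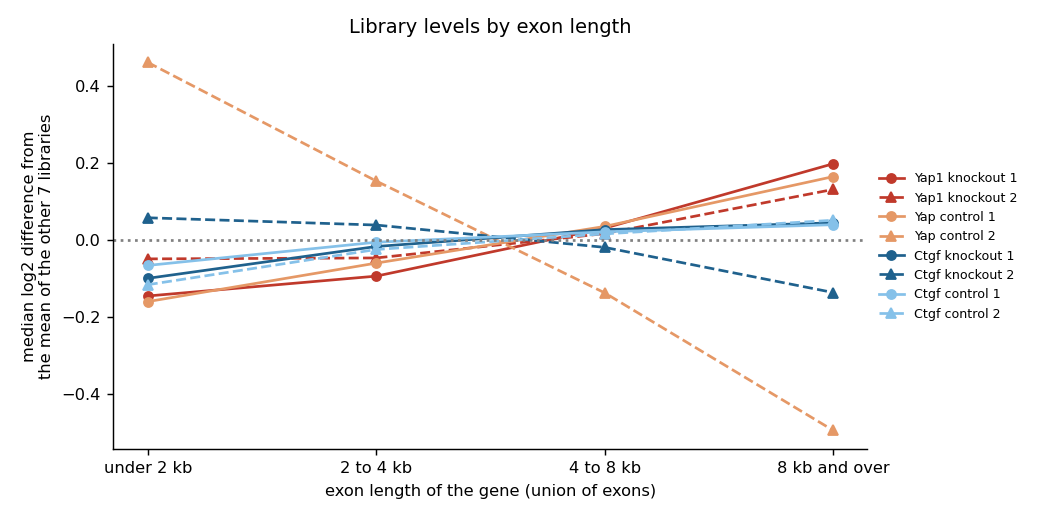
Median log2 difference of each library from the mean of the other 7, by exon length of the gene (union of exons, in 4 classes). Solid lines with circles are replicate 1 and dashed lines with triangles are replicate 2. Yap control 2 runs from 0.46 in the shortest class to -0.49 in the longest, and the other libraries stay between -0.16 and 0.20.

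Tead4 (chromosome 6, 128224288 to 128300823, minus strand), best known for its role in the trophectoderm of the early mouse embryo, had few reads in liver. It stood at 2.60 and 3.84 CPM in both Yap1 knockouts, from 79 and 111 reads, against 1.60 and 1.07 CPM in both Yap controls, from 58 and 26 reads. Both knockouts lay above both controls and above the 4 libraries of the Ctgf line. The log2 fold change was 1.26 (SE 0.461, 95% interval 0.19 to 2.32), with an unadjusted p of 0.0264 and an edgeR adjusted p of 0.312. Leaving out any single library, it ran from 0.95 to 1.55 and did not pass the threshold (adjusted p 0.0849 to 0.831). In the Ctgf line Tead4 stood at 0.887 and 1.72 CPM in the libraries labelled Ctgf knockout and at 1.02 and 1.22 CPM in the Ctgf controls, so that the knockouts enclosed the controls. The log2 fold change was 0.22 (SE 0.468, edgeR adjusted p = 1), and without the library labelled Ctgf knockout 2 it was -0.34.

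Tead2 (chromosome 7, 45215753 to 45233644, plus strand), known as a TEAD gene of embryonic tissue in the mouse, had the opposite direction. It stood at 3.72 and 3.63 CPM in both Yap1 knockouts, against 4.98 and 5.15 CPM in both Yap controls. The groups did not overlap, and each was tight. This gave a log2 fold change of -0.46 (SE 0.331, 95% interval -1.22 to 0.30, edgeR adjusted p = 0.528), and it ran from -0.52 to -0.44 as single libraries were left out. In the Ctgf line Tead2 stood at 1.42 and 2.35 CPM in the libraries labelled Ctgf knockout, and at 2.01 and 2.05 CPM in the Ctgf controls. Their log2 fold change was -0.10 (SE 0.340, edgeR adjusted p = 1). Exons of Tead2 overlap those of Cd37, a leukocyte gene on the opposite strand, and reads of the pair may not have been told apart, since no source used here gives the strand setting of the counting. Cd37 stood at 13.99 and 10.2 CPM in both Yap1 knockouts, against 5.78 and 10.2 CPM in both Yap controls.

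Tead3 (chromosome 17, 28331671 to 28350817, minus strand) varied least of the 4 TEAD genes. It stood at 14.1 and 13.6 CPM in both Yap1 knockouts, against 11.8 and 13.7 CPM in both Yap controls, so that the groups overlapped. Its log2 fold change was 0.12 (SE 0.225, 95% interval -0.40 to 0.64, edgeR adjusted p = 0.809), and its sign turned without Yap control 1, at -0.024. In the Ctgf line it stood at 10.8 and 13.9 CPM in the libraries labelled Ctgf knockout, and at 8.83 and 8.39 CPM in the Ctgf controls. Both labelled knockouts were higher than both controls, by 0.52 on the log2 scale (SE 0.227, 95% interval -0.0064 to 1.04, edgeR adjusted p = 1). Tead3 and Tead4 share 10 of their 50-base windows with each other, 0.145% of the Tead3 windows and 0.272% of those of Tead4, so that few reads could be split between them.

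Vgll4 (chromosome 6, 114860628 to 114969994, minus strand) encodes the TEAD cofactor that competes with YAP and TAZ. It stood at 26.9 and 23.4 CPM in both Yap1 knockouts, against 25.4 and 13.3 CPM in both Yap controls. Only Yap control 2 was low, and the groups overlapped. For Vgll4 the log2 fold change was 0.37 (SE 0.307, 95% interval -0.33 to 1.08, edgeR adjusted p = 0.572). Without Yap control 2 it was -0.013. Without Yap control 1, which leaves the library with exocrine pancreas transcripts as the only control, it was 0.87. Vgll4 in the Ctgf line stood at 16.2 and 17.5 CPM in the libraries labelled Ctgf knockout, and at 14.9 and 17.9 CPM in the Ctgf controls. That log2 fold change was 0.035 (SE 0.307, edgeR adjusted p = 1).

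In the Yap1 comparison as a whole, 3 of the 7 genes (Wwtr1, Tead1 and Tead4) were higher in both knockout libraries than in both controls, and 2 (Yap1 and Tead2) were lower. Over all genes tested, 23.6% were higher in this way and 20.8% lower, and with 7 genes, the targeted gene among them, these counts are a description only. The median log2 fold change was 0.37 over the 7 genes and -0.0046 over all genes tested, with 5 of the 7 above 0 against 49.6% of all genes. The median of the 7 was 0.13 without Yap control 2 and 0.70 without Yap control 1, with 4 of the 7 above 0 in each case. Neutrophil and erythroid markers also stood apart between these groups, though none passed by edgeR. DESeq2 called 5 of the 6 neutrophil and 2 of the 5 erythroid markers, all higher in the knockouts, against 3.82% of the genes that it tested. The 6 neutrophil markers summed to 940 and 454 CPM in Yap1 knockouts, against 128 and 241 CPM in Yap controls, and all 6 were higher in both knockouts. The 5 erythroid markers summed to 466 and 402 CPM in Yap1 knockouts, against 123 and 228 CPM in Yap controls. The part of these cells in the values of the 7 genes was not tested.

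**Figure D4:**
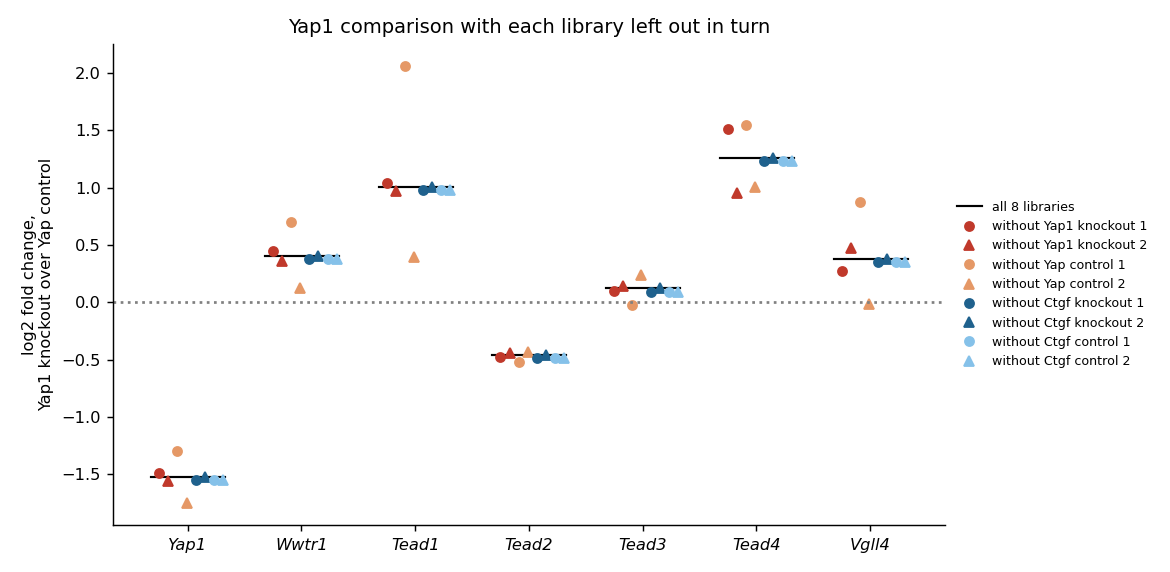
Log2 fold change, Yap1 knockout over Yap control, of the 7 genes with all 8 libraries (bars) and with each library left out in turn (points). The points of Tead1 run from 0.39 to 2.06 and those of Vgll4 from -0.013 to 0.87, with the Yap controls at both ends. Yap1 stays between -1.75 and -1.30, and Tead4 between 0.95 and 1.55.

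The Yap1 call turned on the settings, while the direction of its change held as libraries were left out. Without Yap control 2 the log2 fold change of Yap1 was -1.75, and without Yap control 1 it was -1.30. Without both libraries that stood apart it was -1.75. Without Yap1 knockout 1 or 2 it was -1.49 or -1.56. Each of these fits left a group with a single library, which is assumed to vary like the other groups. Wwtr1, Tead2, Tead3 and Tead4 did not pass in this comparison in any of the 8 fits with a single library left out.

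The Ctgf comparison looked at the same 7 genes in livers labelled as knockouts of Ctgf, a gene that YAP and TEAD are known to activate. The library labelled Ctgf knockout 2 held more Ctgf than either Ctgf control, which puts its label in doubt. Tested and adjusted in the same way by edgeR, 0 of the 7 genes passed, as did 0% of all genes. At an unadjusted p under 0.05 none of the 7 passed, against 1.98% of all genes (92 higher and 185 lower), and DESeq2 called 4 genes and limma-voom 1. Tead3 was higher in both labelled knockouts and Tead1 lower in both, 1 of 7 in each direction, where 15.5% and 16.8% of all genes did so. The median log2 fold change was 0.017 over the 7 genes and 0.0064 over all genes. Without the library labelled Ctgf knockout 2, those of Wwtr1, Tead4 and Vgll4 changed sign. The difference between both knockout effects passed for 0 of the 7 genes and for 0% of all genes. At an unadjusted p under 0.05 it passed for Yap1 alone of the 7, against 8.87% of all genes (655 higher and 587 lower), and DESeq2 called 142 genes, Yap1 among them.

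**Figure D5:**
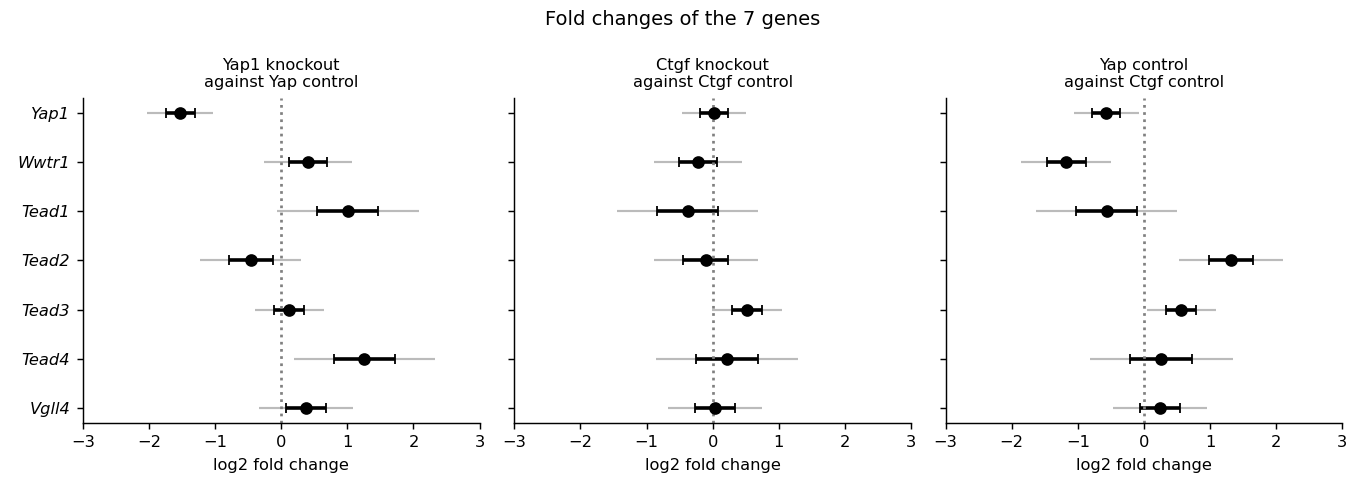
Log2 fold changes of the 7 genes in 3 comparisons. Points are edgeR estimates, dark bars are 1 SE either way and grey bars are 95% intervals. The interval of Yap1 lies below 0 in the Yap1 comparison, at -2.03 to -1.03, and the intervals of Wwtr1 and Tead2 lie on opposite sides of 0 between the controls.

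The controls of both lines carried neither deletion, yet both coactivators stood lower and 2 of the TEAD genes higher in the Yap controls, though none of the 7 genes passed by edgeR. Floxed allele, virus and any difference in handling or library kit cannot be told apart in this comparison. Yap1 stood at 107 and 76.1 CPM in both Yap controls, against 139.5 and 132 CPM in the Ctgf controls (log2 fold change -0.57, SE 0.211, edgeR adjusted p = 0.169). Wwtr1 stood at 52.4 and 34.2 CPM in both Yap controls, against 101 and 95.4 CPM in the Ctgf controls (log2 fold change -1.18, SE 0.293, edgeR adjusted p = 0.0783). Both genes were thus lower in each Yap control than in either Ctgf control. Tead2 stood at 4.98 and 5.15 CPM in both Yap controls, against 2.01 and 2.05 CPM in the Ctgf controls (log2 fold change 1.32, SE 0.338, edgeR adjusted p = 0.0835). Tead3 was higher in the Yap controls too, by 0.56 on the log2 scale (SE 0.227, edgeR adjusted p = 0.196).

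By edgeR's quasi-likelihood test 0 of the 7 genes passed the threshold between the controls, where 2.38% of all genes did. At an unadjusted p under 0.05, 4 of the 7 passed (Yap1, Wwtr1, Tead2 and Tead3), against 22.5% of all genes. DESeq2 called 2, Wwtr1 (adjusted p = 0.00539) and Tead2 (adjusted p = 0.0117), against 10.9% of all genes. The groups did not overlap for Tead2 and Tead3, which were higher, nor for Yap1 and Wwtr1, which were lower, where 26.1% of all genes were higher in this way and 27% lower. Without both libraries that stood apart, Wwtr1 was lower by 0.90 on the log2 scale, Tead2 higher by 1.29 and Vgll4 higher by 0.63. That fit leaves Yap control 1 as the only Yap control, so no call is read from it. Tead1 had a log2 fold change of -0.56 (SE 0.461, edgeR adjusted p = 0.4995) with all libraries and of 0.053 without Yap control 2. Among the 6 stellate markers, Col1a1 and Des rose in the Yap controls against the Ctgf controls (edgeR adjusted p = 0.0104 and 0.0210). Col1a1, a fibrillar collagen gene, stood at 198 and 147 CPM in the Yap controls, against 21.4 and 15.4 CPM in the Ctgf controls. Pdgfrb was higher in both Yap controls without passing by edgeR (DESeq2 adjusted p = 0.00148). Lrat, Reln and Rgs5 overlapped between the groups, and the part of these cells in the values of the 7 genes was not tested.

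Upstream of YAP and TAZ, 29 Hippo kinases and regulators were tested and 0 passed in the Yap1 comparison in either direction. Of them, 20 had a log2 fold change above 0, with a median of 0.25, and 10 were higher and 4 lower in both knockouts. Over all genes, 49.6% were above 0, 23.6% were higher in both knockouts and 20.8% were lower. The smallest p belonged to Ajuba, which encodes a LIM protein that restrains the LATS kinases. It stood at 11.4 and 11.1 CPM in both Yap1 knockouts, against 32.4 and 26.4 CPM in both Yap controls (log2 fold change -1.39, SE 0.216, edgeR adjusted p = 0.0815). DESeq2 called 2 of the 29, against 3.82% of all genes, Ajuba with an adjusted p of 7.70e-06 and Wwc1 with 0.0180. Wwc1, which encodes the scaffold KIBRA, stood at 63.0 and 53.7 CPM in both Yap1 knockouts, against 121 and 90.2 CPM in both Yap controls (log2 fold change -0.85, SE 0.215, edgeR adjusted p = 0.189). Sav1, the scaffold of the MST kinases, stood at 50.1 and 53.1 CPM in both Yap1 knockouts, against 34.8 and 27.9 CPM in both Yap controls (log2 fold change 0.71, SE 0.196, edgeR adjusted p = 0.215).

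In the Ctgf comparison 0 of these 29 genes passed, 14 were lower and 2 higher in both labelled knockouts, where 16.8% of all genes were lower in this way and 15.5% higher. The median log2 fold change of the 29 was -0.14. Markers of other cells were lower in both labelled knockouts too, all 5 of the mesothelial list and 5 of the 6 macrophage markers, though none passed. So were 4 of the 6 cholangiocyte, 4 of the 6 neutrophil, 2 of the 6 stellate and 1 of the 6 T, NK and B cell markers. No hepatocyte, endothelial or erythroid marker was lower in this way. The mesothelial markers summed to 4.90 and 3.498 CPM in the libraries labelled Ctgf knockout, against 12.7 and 9.64 CPM in the Ctgf controls. The macrophage markers summed to 264 and 357 CPM in the libraries labelled Ctgf knockout, against 363 and 561 CPM in the Ctgf controls, and the part of these cells was not tested. Ptpn14, a phosphatase that binds YAP, stood at 67.4 and 25.7 CPM in the libraries labelled Ctgf knockout, against 96.0 and 98.8 CPM in the Ctgf controls (log2 fold change -1.07, SE 0.398, edgeR adjusted p = 1). Its lower value is that of the library labelled Ctgf knockout 2. Ajuba stood at 14.1 and 12.8 CPM in the libraries labelled Ctgf knockout, against 19.3 and 16.1 CPM in the Ctgf controls (log2 fold change -0.40, SE 0.212, edgeR adjusted p = 1). Between the controls 0 of the 29 passed.

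Of 14 other nuclear partners, 11 were tested and 0 passed in the Yap1 comparison, with 6 higher and 2 lower in both knockouts, against 23.6% and 20.8% of all genes, and a median log2 fold change of 0.22. Runx1, a transcription factor that can bind YAP and TAZ, stood at 25.7 and 25.6 CPM in both Yap1 knockouts, against 13.1 and 7.57 CPM in both Yap controls (log2 fold change 1.30, SE 0.292, edgeR adjusted p = 0.153). It was the only one of the 11 that DESeq2 called (adjusted p = 0.00401). It fell in the Yap controls against the Ctgf controls, which held 28.5 and 30.3 CPM of it (log2 fold change -1.50, SE 0.293, edgeR adjusted p = 0.0474). Vgll3, a relative of Vgll4, stood at 4.08 and 2.98 CPM in both Yap1 knockouts, against 1.55 and 0.906 CPM in both Yap controls (log2 fold change 1.51, SE 0.511, edgeR adjusted p = 0.280). Nfix, a nuclear factor I gene, had a log2 fold change of -0.42 (SE 0.184, edgeR adjusted p = 0.364). Vgll1 and Vgll2, the other members of that family, had no read in any library, and 3 reads, about the upper 95% limit for a count of 0, come to 0.0830 to 0.123 CPM. In the Ctgf comparison 0 of the 11 passed, and the median log2 fold change was -0.022. Vgll3 stood at 0.532 and 0.191 CPM in the libraries labelled Ctgf knockout, against 0.924 and 0.853 CPM in the Ctgf controls (log2 fold change -1.30, SE 0.566, edgeR adjusted p = 1).

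Downstream, 21 of 22 genes of a YAP/TAZ target signature were tested and 0 passed in the Yap1 comparison, where 17 had a log2 fold change above 0, against 49.6% of all genes, with a median of 0.41. In both knockouts 10 were higher and 1 was lower, where 23.6% and 20.8% of all genes were. Nt5e, which encodes the ectonucleotidase CD73, stood at 27.2 and 32.2 CPM in both Yap1 knockouts, against 10.1 and 7.49 CPM in both Yap controls (log2 fold change 1.75, SE 0.245, edgeR adjusted p = 0.0557). F3, the gene for tissue factor, stood at 9.87 and 8.93 CPM in both Yap1 knockouts, against 4.20 and 4.07 CPM in both Yap controls (log2 fold change 1.18, SE 0.248, edgeR adjusted p = 0.139). Gadd45a, a stress response gene, stood at 26.3 and 29.6 CPM in both Yap1 knockouts, against 8.16 and 11.6 CPM in both Yap controls (log2 fold change 1.50, SE 0.424, edgeR adjusted p = 0.221). DESeq2 called 4 of the 21, these 3 and Ctgf, against 3.82% of all genes. Ctgf was higher too, at 406 and 324 CPM in both Yap1 knockouts, against 96.8 and 50.1 CPM in both Yap controls. Its log2 fold change was 2.31 (SE 0.718, edgeR adjusted p = 0.250, DESeq2 adjusted p = 0.0101). In the Ctgf comparison 0 of the 21 passed and 4 were above 0, against 51.1% of all genes. In both labelled knockouts 11 were lower and 1 was higher, where 16.8% and 15.5% of all genes were, and the median was -0.31, with Cyr61, a gene of the same CCN family as Ctgf, at -1.06 (SE 0.327, edgeR adjusted p = 1). Lats2, Amotl2 and Ptpn14, all lower in both labelled knockouts, are also on the list of Hippo regulators and are counted in both lists. Between the controls Ccdc80, a matrix protein gene, was higher in the Yap controls (log2 fold change 1.24, SE 0.190, edgeR adjusted p = 0.0322) and Gadd45a lower (log2 fold change -2.14, SE 0.431, edgeR adjusted p = 0.0494).

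Genes whose pattern over the 8 libraries was most like that of Yap1 were ranked by the root mean square (RMS) difference of log2(CPM + 0.5), with each gene centred on its own mean. Among 10134 candidates with a mean of at least 5 CPM, these were Coq8a (RMS 0.212), Rnf43 (0.224), Arhgef19 (0.254), Slc2a2 (0.280) and Slc16a12 (0.289), where the RMS of Yap1 about its own mean was 0.863. Coq8a stood at 16.2 and 13.5 CPM in both Yap1 knockouts, against 48.1 and 44.4 CPM in both Yap controls, and at 48.1 to 67.6 CPM in the Ctgf line. Rnf43 stood at 7.77 and 8.89 CPM in both Yap1 knockouts, against 20.7 and 15.6 CPM in both Yap controls. Without Yap control 2, 3 of these 5 genes were again among the 5 most alike. The pattern of Wwtr1 was closest to those of Arhgef11 (0.0665) and Fam160a2 (0.0719), and that of Tead1 to those of Aff4 (0.131) and Jmjd1c (0.143). Tead2 was closest to Gltp (0.128) and Dok1 (0.130), Tead3 to Pskh1 (0.0575) and Nit1 (0.100), Tead4 to Stard4 (0.147) and Slc7a2 (0.162), and Vgll4 to Srrm2 (0.0800) and Cyfip1 (0.0804). The 8 libraries share scaling, depth and the low long-gene levels of Yap control 2, and likeness here is a description.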

How the data were processed

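The deposited values are raw read counts, as whole numbers, for each gene symbol in each of the 8 libraries. Per the submitters' processing notes, the tools were STAR 2.6.0a, HTSeq 0.6.1 and bcl2fastq 2.20.0.422, and mm10 and GRCm38 are named as builds. No source used here gives the annotation or the strand setting. The counts were scaled by TMM, passed through edgeR's low-count filter and tested by its quasi-likelihood F test (R 4.3.3, edgeR 4.0.16). All 8 libraries of the 4 groups entered a single fit with 4 residual degrees of freedom, a spread shared by all groups and a biological coefficient of variation of 27.2%. Adjustment was by Benjamini-Hochberg over all 13999 genes, and adjusted p under 0.05 was the threshold. Each standard error is the fold change over the root of its F statistic, and 95% intervals from these and 7.87 total degrees of freedom. Groups are called not overlapping where both libraries of a group lie above both of the other.

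The members and lists were chosen with earlier results of these data known. The text names the 7 genes, list genes past the threshold or otherwise up to 3 (Yap1 comparison) or 2 (Ctgf comparison) of smallest p, and the genes most like each of the 7. Exon unions and positions came from the GENCODE annotation of GRCm38. Alternatives were RLE and upper-quartile scaling, DESeq2 1.42.0, limma-voom (limma 3.58.1), other filters (none, or 1 CPM in 2 libraries), only the libraries compared, a replicate block, a robust spread, leaving out each library, and, chosen after seeing the data, leaving out both libraries that stood apart and a crossed block. Tests were tried on simulated data. The reads carry no molecular identifiers.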

Additional observations from a re-analysis of the deposited data

How the results depend on the processing

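The direction of the Yap1 change in the Yap1 comparison held in every setting tried, at -1.54 with DESeq2, -1.53 without a low-count filter, -1.75 without both libraries that stood apart, and -1.75 to -1.30 as single libraries were left out. The adjusted p passed the threshold in the first 3 of these and without either Yap control. The number of genes past the threshold was less settled. In the Yap1 comparison it was 4, against 514 with DESeq2, 37 without a low-count filter, 0 with only the libraries compared, 906 without both libraries that stood apart and 0 to 3573 as single libraries were left out. In the Ctgf comparison it was 0, against 4 with DESeq2 and 1 with limma-voom. For the difference between effects it was 0, against 142 with DESeq2, 2 without a filter, 138 without both libraries that stood apart and 0 to 2111 with single libraries left out. Between the controls it was 333, against 1527 with DESeq2, 0 with only the libraries compared, 4046 without both libraries that stood apart and 0 to 3453 with single libraries left out; the cause was not tested. A fit that leaves a group with a single library assumes that it varies like the other groups.

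Log2 fold changes that turned sign were as follows. In the Yap1 comparison, Tead3 ran from -0.0244 to 0.24 and Vgll4 from -0.0132 to 0.87 with single libraries left out, and Vgll4 was -0.0131 without both libraries that stood apart. In the Ctgf comparison, with single libraries left out, Yap1 ran from -0.0111 to 0.0558, Wwtr1 from -0.61 to 0.0903, Tead2 from -0.51 to 0.23, Tead4 from -0.34 to 0.62 and Vgll4 from -0.0924 to 0.19. Without both libraries Wwtr1 was 0.0904, Tead4 -0.34 and Vgll4 -0.0219. For the difference, Tead2 ran from -0.72 to 0.0534 and was 0.0774 without both, and Vgll4 ran from -0.0480 to 0.83. Between the controls, Tead1 ran from -1.62 to 0.0531 and was 0.0531 without both, Tead4 ran from -0.0323 to 0.51 and Vgll4 from -0.26 to 0.63. Without length correction the Wwtr1 share was 64.3% in Yap1 knockouts and 31.9% in Yap controls, and with coding length 66.1% and 33.6%. In Ctgf controls it was 58.3% per kb of exon, 41.9% without length correction and 43.8% with coding length, so that the higher of both genes turned. Of the 20 group shares of Wwtr1 and the Tead genes, 18 moved by more than their SD under either choice.

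The labels share replicate numbers between groups. The titles also call each Yap control the control for a numbered knockout, and that number matches the column name of Yap1 knockout 2 for Yap control 2, but that of the control itself for Yap control 1. No label says whether such a match marks a litter, a batch or a day, and same-numbered deviations correlated at 0.15 in the Yap line, 0.10 in the Ctgf line and -0.15 between the controls. With a replicate block 3 genes passed in the Yap1 comparison, 0 in the Ctgf comparison and 219 between the controls, and the Yap1 change was -1.52 (adjusted p = 0.0936); it changed no call among the 7 genes. With the numbers crossed between the lines 240 genes passed between the controls. With 2 libraries a group, a miss of the threshold does not show that a gene was alike in both groups. Tead4 rested on 25 to 111 reads a library.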
